A study of Mus musculus with 8 samples.

Results

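The genes of 4 Janus kinases (Jak1, Jak2, Jak3 and Tyk2) and of 5 signal transducers and activators of transcription (Stat2, Stat3, Stat4, Stat5a and Stat6) were followed in mouse wound skin. They were taken by symbol from a table of 18540 genes, and all 9 were found in it. The table held reads per gene for 4 control samples, labelled con1, con2, con3 and con5, and 4 treated samples, labelled shiyan1, shiyan2, shiyan4 and shiyan5. They are called control and Z1C2Z here, after the study's own figures, which carry the same sample numbers. Wherever 4 values of a group follow each other they stand in the order of these numbers. Z1C2Z is a composite of zinc peroxide and cerium oxide particles in the metal organic framework ZIF-8, with the higher ratio of cerium to zinc. It was injected around full-thickness wounds on the back, the control wounds received PBS, and the treated skin was taken after 15 days. The study wounded C57BL mice and db/db mice, a diabetic strain with a defective leptin receptor, but the strain, age and mouse of each sequenced sample are not given in the sources used here. The p-values therefore measure the spread between these samples, which may come from shared mice.

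Janus kinases are bound to the inner side of cytokine receptors. When a cytokine joins the receptor chains, the kinases phosphorylate each other and the receptor, STAT proteins dock and are phosphorylated, and STAT dimers enter the nucleus and switch on target genes. Receptors differ in the kinases and STATs they use. The IL6 family acts largely through JAK1, JAK2 and STAT3, receptors with the common gamma chain through JAK1 and JAK3, type I interferon through JAK1, TYK2 and STAT2, IL12 through JAK2, TYK2 and STAT4, and IL4 through STAT6. In skin, STAT3 in keratinocytes takes part in wound closure and the hair cycle, while JAK3 and STAT4 are best known from lymphocytes. Activity of these proteins is set by phosphorylation, which RNA counts do not measure.

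Jak2 and Stat3 were the members that passed the test. In both, all treated values lay below all control values, on average by 1.91-fold and 1.71-fold. Tyk2, at the other end, differed by 1.01-fold. All 9 members had a log2 fold change under 0, as did 48.9% of the 15147 genes tested, and 2 of 9 had an adjusted p under 0.05 in edgeR's quasi-likelihood test. Among all genes tested, 3.85% passed the same threshold in this direction. The groups did not overlap for 3 of the 9 (Jak2, Stat3 and Stat6), where 8.82% of all genes were lower without overlap. No member passed in edgeR with an absolute log2 fold change over 1 added, a combination that 1.25% of all genes met in this direction, while DESeq2 called 1 (Stat4) on both counts, against 2.08% of the genes it tested. With an unadjusted p under 0.05, 7 of 9 members were lower, against 15.2% of all genes. DESeq2 called 6 of 9 lower at an adjusted p under 0.05, against 9.05% of the genes it tested. The median log2 fold change was -0.52 over the members and 0.01 over all genes tested.

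Between 28856790 and 38974888 reads were counted per sample, so Jak1 had at least 8010 counts in a library and Stat4, the scarcest, at least 101. All 9 members passed the low-count filter. Bulk skin mixes cell types, and fewer cells of a type and less RNA per cell cannot be told apart in it. Keratinocyte genes, the defining markers of the tissue, summed to between 13186 and 19863 CPM (counts-per-million, TMM-scaled) in the 8 samples.

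The promoters of Jak2 and Stat3 are shown because these are the members that passed in edgeR, and that of Stat2 because it alone held both an interferon-type and a STAT-type motif. The 11 promoter windows of the 9 members, some with more than 1 start site, were matched by symbol in RefSeq (GRCm38.p6) and searched on both strands from 250 to 61 bases before the start. Capitals mark the matches to the GC box GGGCGG (or CCGCCC), to the core of the interferon-stimulated response element (TTTC, any 2 bases, TTTC) and to a STAT-type motif (TTC, any 4 bases, GAA).
Jak2, chr19:29251553-29251742, plus strand: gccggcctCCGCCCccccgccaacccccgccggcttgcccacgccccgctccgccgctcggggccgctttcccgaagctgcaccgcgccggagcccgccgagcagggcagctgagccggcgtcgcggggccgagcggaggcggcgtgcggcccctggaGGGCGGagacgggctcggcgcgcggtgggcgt
Stat3, chr11:100939601-100939790, minus strand: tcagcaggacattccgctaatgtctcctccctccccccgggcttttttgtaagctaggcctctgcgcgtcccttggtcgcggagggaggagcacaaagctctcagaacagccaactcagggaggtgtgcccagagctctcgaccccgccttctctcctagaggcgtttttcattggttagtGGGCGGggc
Stat2, chr10:128270248-128270437, plus strand: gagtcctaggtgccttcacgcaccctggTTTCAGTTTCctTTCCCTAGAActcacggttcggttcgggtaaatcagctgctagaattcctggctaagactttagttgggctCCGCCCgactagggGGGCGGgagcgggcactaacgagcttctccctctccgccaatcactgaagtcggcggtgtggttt

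The Jak2 window was 83.2% G and C, that of Stat3 60% and that of Stat2 56.8%, where the median of 32851 windows was 51.6%. The GC box was found in 6 of the 11 windows (Jak2, Jak3, Tyk2, Stat2, Stat3 and Stat5a) and in 22.8% of all windows. The interferon-type core was found in the Stat2 window and in 1 of the 2 Stat4 windows, against 2.34% of all windows. The STAT-type motif with 4 bases between its arms was found in the Stat2 window alone (4.54% of all windows). With 3 bases between TTC and GAA it was in 0 of the 11 and in 5.51% of all windows. These are matches of letters, which say nothing of binding.

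Levels of different genes were compared per length, as CPM per kilobase of exon (exon lengths from GENCODE M21, 3148 to 6228 bases). In the control group Jak1, which serves most of the receptor families named above, was highest at 79.2 ± 7.49 (SD, n = 4), above every control value of any other member. Stat3 followed at 44.5 ± 5.78, Jak2 at 36.3 ± 6.33 and Stat6 at 33.1 ± 1.77 (SD, n = 4 each). The ranges of Stat3 and Jak2 overlapped, as did those of Jak2 and Stat6. Stat2 lay between 8.53 and 12.9, Stat5a at 5.31 ± 1.04 and Tyk2 at 4.05 ± 0.682 (SD, n = 4 each), the ranges of Stat5a and Tyk2 overlapping. Stat4 at 2.51 ± 0.675 and Jak3 at 2.40 ± 0.692 (SD, n = 4 each), the lymphocyte-associated pair, were lowest and not separated from each other. In Z1C2Z skin Jak1 was still highest (55.9 ± 13.8), and Stat6 (27.4 ± 1.90) had the next mean, above Stat3 (26.1 ± 5.77) and Jak2 (19.0 ± 4.58, SD, n = 4 each). Stat3 was second in each of the 4 control samples, whereas Stat6 was second in Z1C2Z-1, Z1C2Z-2 and Z1C2Z-4.

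**Figure D1:**
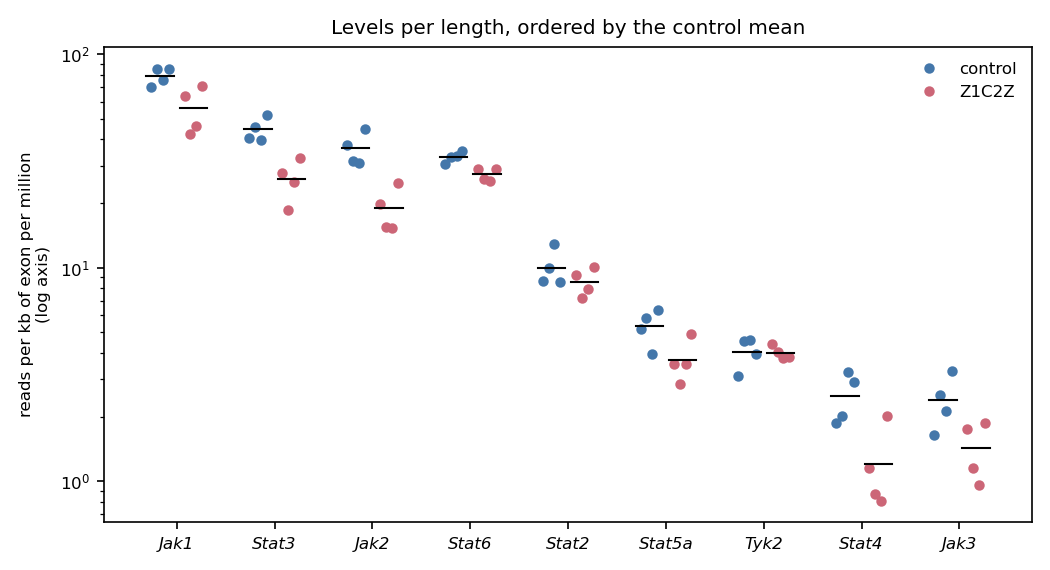
Level of each member in CPM per kilobase of exon (log axis), with 1 point per sample, control in blue and Z1C2Z in red, and black bars for group means. Jak1 is highest in both groups, and Stat4 and Jak3 lie lowest at group means between 1.21 and 2.51.

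Among the kinases only Jak2 passed the test. Jak2 transmits signals of the IL6 family, interferon gamma and, as the only kinase on them, the receptors of erythropoietin, growth hormone and the granulocyte-macrophage factor. It had 189, 159, 156 and 225 CPM in the controls. In the Z1C2Z samples it had 99.8, 78.1, 77.4 and 126 CPM. The highest treated sample thus lay under the lowest control sample. The group means were 182 ± 31.8 and 95.4 ± 23.0 CPM (SD, n = 4 each). On the log2 scale Jak2 fell by 0.93 with a standard error of 0.18 (edgeR adjusted p = 0.0303). The exact two-sided permutation test gave p = 0.0286, the smallest that 4 samples against 4 allow. Jak2 ranked 300 of the 15147 genes by p. The adjusted p lay between 8.0e-05 (DESeq2) and 0.174 (a skeletal muscle score as covariate) over 14 alternatives, all with a fall. Leaving out 1 of control-2, control-5 and Z1C2Z-1, or 1 of Z1C2Z-2 and Z1C2Z-4, raised it to between 0.0578 and 0.0926 in edgeR. In these fits few or no genes of the whole table were called lower, 1 of 15147 with the muscle score, 98 of 15287 without control-2 and 0 without any of the other 4.

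Jak1 is shared by the IL6, interferon and common gamma chain receptors. Its values were 345, 421, 371 and 417 CPM in the controls and 313, 208, 227 and 349 CPM in the Z1C2Z samples. Only Z1C2Z-5 reached into the control range, just above control-1. The log2 fold change was -0.50 (standard error 0.17) and did not pass (edgeR adjusted p = 0.0946, exact permutation p = 0.0571). Over 14 alternatives the adjusted p ran from 0.0366 in DESeq2 to 0.330. In edgeR without Z1C2Z-5 it was 0.0390.

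Jak3 pairs with the common gamma chain and is largely a kinase of lymphoid and myeloid cells. It was counted 207 to 520 times per control library and 170 to 300 times per Z1C2Z library, that is 7.35, 11.3, 9.47 and 14.6 CPM in the controls. The treated samples had 7.81, 5.13, 4.27 and 8.32 CPM, and control-1 lay among them. Its log2 fold change was -0.75 with a standard error of 0.27. The adjusted p was 0.112 in edgeR, with 0.0427 in DESeq2 and a range of 0.0427 to 0.313 over 14 alternatives. Jak3 shares 404 bases of exon, 9.05% of its length, with Insl3 on the same strand, but Insl3 had at most 3 counts in a library.

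Tyk2, the partner of JAK1 at the type I interferon receptor and of JAK2 at the IL12 receptor, had 22.5 ± 3.79 CPM in control and 22.2 ± 1.56 CPM in Z1C2Z samples (SD, n = 4 each). The log2 difference of -0.02 with a standard error of 0.13 had an edgeR adjusted p of 0.935, and its sign turned in 4 of 14 alternatives. The lowest and the highest values, 17.3 CPM in control-1 and 25.6 CPM in control-3, both belonged to the control group.

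**Figure D2:**
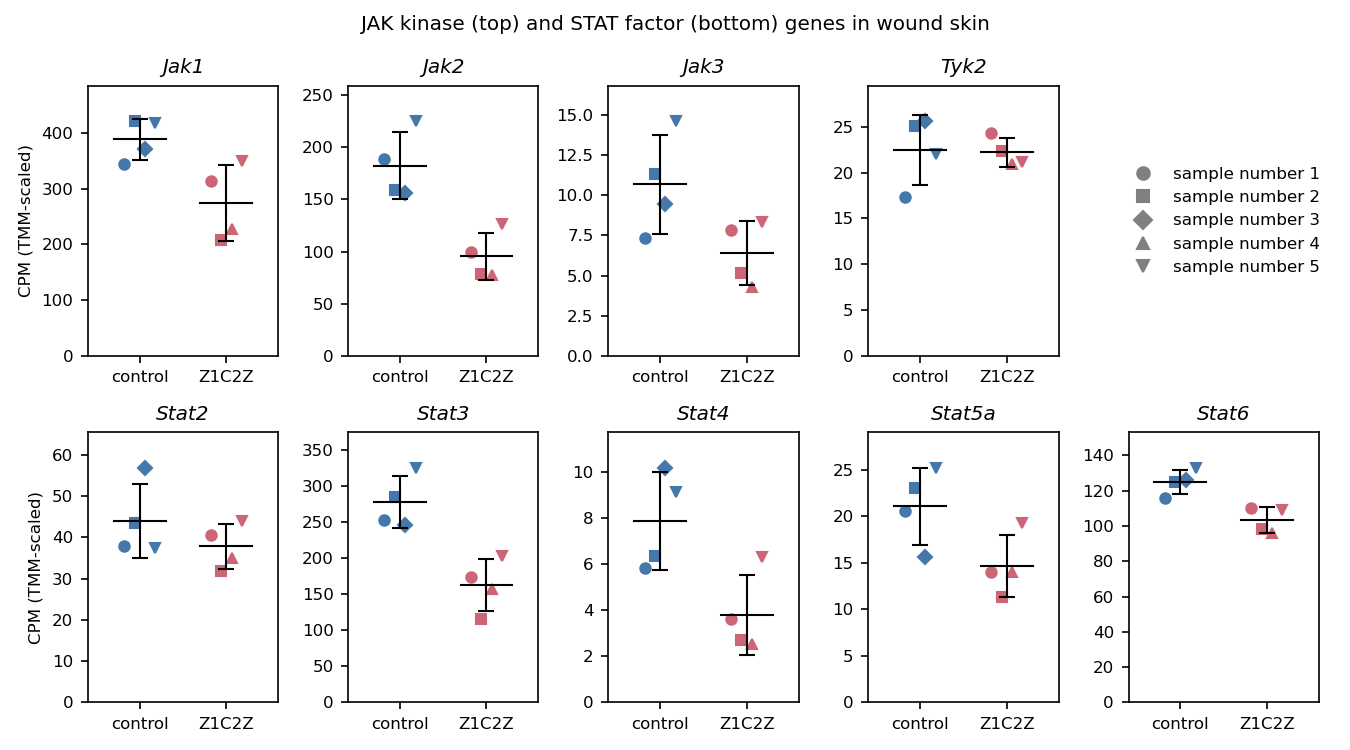
TMM-scaled CPM of each member, with 1 point per sample, a marker shape for each sample number, and the group mean ± SD in black (n = 4). The groups are apart for Jak2, Stat3 and Stat6 and overlap for the other 6 genes.

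Among the STAT genes, Stat3 encodes the main factor of the IL6 family and of IL10. It had 253, 285, 246 and 325 CPM in the controls. The Z1C2Z samples had 173, 116, 157 and 203 CPM, all below the controls. On the log2 scale Stat3 fell by 0.77 with a standard error of 0.17. This passed in edgeR (adjusted p = 0.0337), and the exact permutation p was 0.0286. Over 14 alternatives the adjusted p lay between 0.000522 (DESeq2) and 0.168 (skeletal muscle score), and the change was a fall in each. The call was lost when any 1 of the same 5 samples as for Jak2 was left out, at an edgeR adjusted p of 0.0698 to 0.104. Stat3 overlaps the end of Stat5a on the opposite strand by 72 bases of exon, and the strand setting of the counting is not given in the sources used here.

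Stat6, the factor of IL4 and IL13, varied least. It had 116, 125, 126 and 133 CPM in the controls against 110, 98.4, 96.1 and 109 CPM in the Z1C2Z samples. All treated samples lay below all control samples (exact permutation p = 0.0286), but the difference was small. It came to -0.27 on the log2 scale with a standard error of 0.08. The adjusted p was 0.0747 in edgeR and ran from 0.0221 in DESeq2 to 0.504 over 14 alternatives.

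Stat4 carries the IL12 signal in T and NK cells. It had the most negative log2 fold change of the 9, -1.06, with the largest standard error, 0.32 (edgeR adjusted p = 0.0713). The counts were 165, 229, 372 and 324 in the controls and 128, 105, 101 and 228 in the Z1C2Z samples. Z1C2Z-5, at 6.32 CPM, lay between control-1 (5.86 CPM) and control-2 (6.35 CPM), and the other 3 treated samples lay under every control. The exact permutation p was 0.0571. Over 14 alternatives the adjusted p ran from 0.00961 in DESeq2 to 0.186, and without Z1C2Z-5 it was 0.0174 in edgeR. A non-coding transcript, Gm28177, covers 32.8% of the Stat4 exons on the same strand, so reads from it cannot be told apart there.

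Stat5a, a factor of the IL2, growth hormone and prolactin receptors, had 21.1 ± 4.14 CPM in control and 14.7 ± 3.32 CPM in Z1C2Z samples (SD, n = 4 each), with overlap. Its log2 fold change was -0.52 with a standard error of 0.19. The edgeR adjusted p was 0.116, and over 14 alternatives it ran from 0.0453 without Z1C2Z-5 to 0.453. Stat5a has a close paralogue, and how shared reads were assigned is not given in the sources used here. Stat2, which binds IRF9 in the interferon-activated complex, had 44.0 ± 9.07 and 37.9 ± 5.53 CPM (SD, n = 4 each, log2 fold change -0.22, standard error 0.16, edgeR adjusted p = 0.402). Its highest value was that of control-3, at 56.9 CPM.

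**Figure D3:**
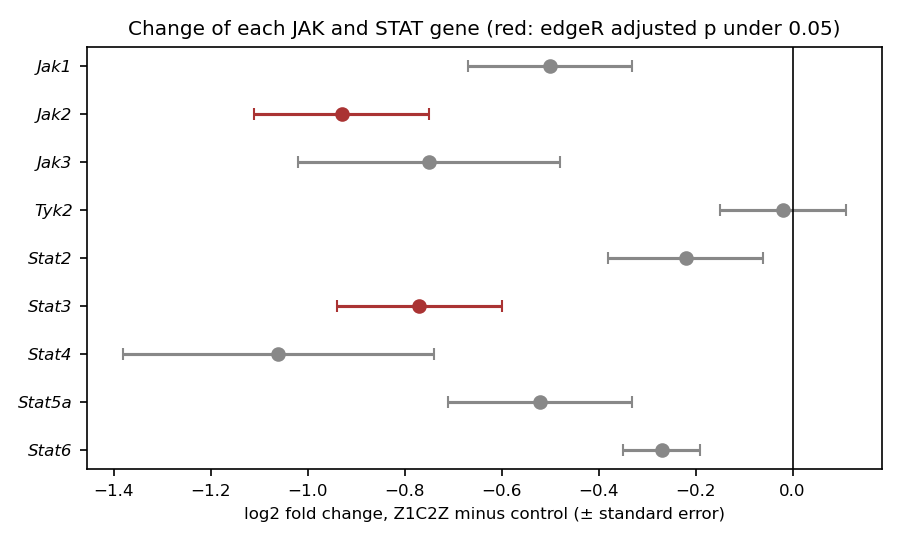
Log2 fold change of each member, Z1C2Z minus control, with its standard error from edgeR's quasi-likelihood test (4 samples per group). The points run from -1.06 for Stat4 to -0.02 for Tyk2, and Jak2 and Stat3, in red, have an adjusted p under 0.05.

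The same treated samples were low, or high, in most members. Z1C2Z-2 or Z1C2Z-4 was the lowest treated sample for 9 of 9 members and Z1C2Z-5 the highest for 7 of 9. Control-5 was the highest control sample for 5 and control-1 the lowest for 5. How often other genes of the table have these extremes was not counted, so the order is not particular to the members. Among the treated samples, the summed marker genes of leukocytes, neutrophils, fibroblasts and endothelium were also lowest in Z1C2Z-4 and highest in Z1C2Z-5. Those of the other cell types were not, and the hair follicle sum was lowest in Z1C2Z-5. The summed level of the 4 JAK genes per length was 113, 125, 113 and 137 in the controls, and 89.8, 63.0, 66.5 and 102 in the Z1C2Z samples. Of that sum, Jak2 made up 25.4 to 33.4% in control and 22.1 to 24.7% in Z1C2Z samples. Of the summed level of the 5 STAT genes, Stat3 made up 42.4 to 49.7% in control and 33.5 to 41.5% in Z1C2Z samples, while the share of Stat6 was 33.4 to 35.9% and 36.9 to 46.8%.

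Whether 2 members of a family changed by different amounts was tested on their log2 ratio within each sample, which needs no library scaling. All 6 JAK pairs and 10 STAT pairs were compared by exact two-sided permutation tests, adjusted over the 16 pairs. In 5 of the 16 pairs the ratios did not overlap between the groups, each with p = 0.0286 and an adjusted p of 0.0914 in the exact test. That p is the smallest that 4 samples against 4 allow, and 5 pairs at it cannot pass over 16. That 0 pairs passed after adjustment therefore does not show equal changes. Jak2 or Stat3, each without overlap on its own, is in all 5 but Stat2 over Stat4. How often the ratios of other gene pairs do not overlap was not counted. The log2 ratio of Jak1 over Jak2 was 1.10 ± 0.27 in control and 1.52 ± 0.10 in Z1C2Z samples (SD, n = 4 each). That of Jak2 over Tyk2 was 3.02 ± 0.44 and 2.07 ± 0.35 (SD, n = 4 each), a difference of -0.94 (standard error 0.28), the largest of any pair. Stat3 moved against Stat6 by -0.52 (standard error 0.15) and against Stat5a by -0.27 (standard error 0.10). The fifth pair was Stat2 over Stat4, at 0.90 (standard error 0.26). Jak2 against Jak3 (-0.20, standard error 0.22, exact permutation p = 0.429) and Stat3 against Stat4 (0.31, standard error 0.28, exact permutation p = 0.371) were within the spread between samples, which does not show that they changed alike.

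**Figure D4:**
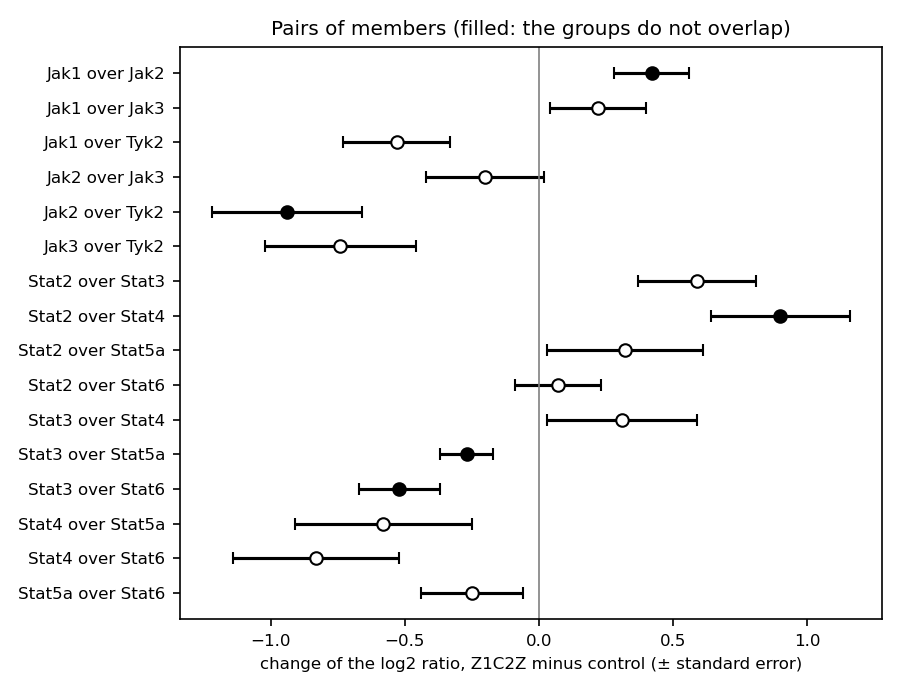
Change of the within-sample log2 ratio of 2 members, Z1C2Z minus control, with its standard error (4 samples per group), for 6 JAK and 10 STAT pairs. Filled points are the 5 pairs without overlap, from -0.94 for Jak2 over Tyk2 to 0.90 for Stat2 over Stat4.

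Markers of several cell types moved with the groups. For all 9 hair follicle genes the Z1C2Z values lay above the control values, 8 of them at an edgeR adjusted p under 0.05, and none was at 0 counts. Their summed level was 641, 2316, 3552 and 584 CPM in the controls and 8792, 14646, 14130 and 4362 CPM in the Z1C2Z samples. The samples with the lowest Jak2, Z1C2Z-2 and Z1C2Z-4, thus had the highest follicle sums. This was not particular to the follicle list. Among the treated samples they also had the lowest leukocyte, macrophage, neutrophil, fibroblast and endothelial sums. Their T and NK cell and adipocyte sums were the highest of the treated samples. Skeletal muscle genes summed to 3705 to 6885 CPM in control and 3089 to 3544 CPM in Z1C2Z samples, with 11 of 11 under 0 and 3 passing the test. Fibroblast genes had 7 of 7 under 0 and 2 passing (55720 to 79315 against 43772 to 61515 CPM). Beside these cell types, 1280 of all 15147 genes tested were higher without overlap and 48.9% had a log2 fold change under 0. In edgeR 4.28% of all genes passed as higher and 3.85% as lower. The part of these cell types in the fall of Jak2 and Stat3 was not tested. The muscle score named above cannot test it, since the muscle sums did not overlap between the groups. With that score 1 of 15147 genes was called lower, and the log2 fold changes were -0.79 for Jak2 and -0.77 for Stat3.

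Since Jak3 and Stat4 are genes of blood cells, the members were also set beside 10 genes common to all leukocytes. These had 9 of 10 log2 fold changes under 0, with 0 passing in edgeR (2 lower at an unadjusted p under 0.05, and 1 lower in DESeq2), and summed to 1011 to 1213 CPM in control and 664 to 1078 CPM in Z1C2Z samples. Ptprc, which encodes the pan-leukocyte protein CD45, had 154 ± 33.3 and 115 ± 29.0 CPM (SD, n = 4 each), which did not pass in edgeR at an adjusted p of 0.210. Relative to the mean log2 CPM of the list, Jak2 differed by -0.66 and Stat4 by -0.81 between the groups, both with an exact permutation p of 0.0286 and an adjusted p of 0.129 over the 9 members. That p is the smallest that 4 samples against 4 allow, and these members alone at it cannot pass over 9. Stat3 differed by -0.50 (exact permutation p = 0.0571) and Jak3 by -0.46 (p = 0.171). Stat6 differed by 0.02 (exact permutation p = 0.857), which is within the spread between samples. The 12 genes of T and NK cells, where Stat4 and Jak3 are best known, had 3 of 12 log2 fold changes under 0, with 0 passing in edgeR (1 higher at an unadjusted p under 0.05, and 1 higher in DESeq2), and summed to 44.7 to 82.7 CPM in control and 48.4 to 75.6 CPM in Z1C2Z samples. No gene of either list was at 0 counts.

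Receptors, ligands, inhibitors and targets of the pathway were counted from 11 hand-written lists with 150 genes in all, of which 130 were tested. In edgeR 18 were lower and 3 were higher at an adjusted p under 0.05, beside 3.85% and 4.28% of all genes tested. The 18 became 36 in DESeq2, where 9.05% of all genes were lower, 24 without Z1C2Z-5 (5.62%) and 7 without control-2 (0.641%). It was 0 with the muscle score, where 1 gene of the whole table was lower, and when control-5 or any 1 treated sample other than Z1C2Z-5 was left out, where none was. The KEGG pathway for JAK-STAT signaling, as annotated in the deposited table, held 120 tested genes other than the members, 14 lower and 3 higher, with a median log2 fold change of -0.18.

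Of the ligands, 19 of 34 were tested, with a median log2 fold change of -1.24, and 3 were lower. These were Il6 (-5.51, edgeR adjusted p = 0.0356), Csf3 (-4.32, 0.0484) and Il11 (-3.86, 0.0449). Il6, the ligand that starts JAK and STAT3 signaling through gp130, was counted 4905, 187, 272 and 5330 times in the controls and 29 to 125 times in a Z1C2Z sample. Csf3, the granulocyte colony-stimulating factor, had 460, 42, 49 and 792 counts in the same 4 controls and 3 to 32 counts in a Z1C2Z sample. Both ligands were thus high in control-1 and control-5, a split that Jak2 did not show to that degree (189 and 225 against 159 and 156 CPM). Lif, a further ligand of the IL6 family, was high in the same 2 controls (1483 and 3185 counts) but did not pass (edgeR adjusted p = 0.0539). Control-2, at 63 counts, lay among the treated samples (59 to 84 counts), and control-3, at 99 counts, lay above them.

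Receptor chains were counted by receptor group. Of 8 IL6 family chains, Osmr, the oncostatin M receptor, was lower (168 ± 39.8 against 64.4 ± 24.7 CPM, SD, n = 4 each, log2 fold change -1.38, edgeR adjusted p = 0.0306). Il6st, which encodes gp130, did not pass (-0.62, edgeR adjusted p = 0.0989), and Il11ra1 differed by 0.01. Of 9 chains of the gamma chain and related receptors, Il4ra (-1.36, edgeR adjusted p = 0.0414), Il2ra (-1.15, 0.0337) and Il15ra (-1.14, 0.0280) were lower. Il2rg, the common gamma chain that JAK3 pairs with, had -0.68 and did not pass (edgeR adjusted p = 0.115). Il13ra1, counted here as a related chain, had -0.63 (edgeR adjusted p = 0.0537). Of 10 tested chains of receptors that use JAK2, Csf2rb, the common beta chain of the GM-CSF, IL3 and IL5 receptors, was lower (-1.11, edgeR adjusted p = 0.0497). Il5ra was higher (1.25, edgeR adjusted p = 0.0449), from 7 to 18 counts per control and 31 to 38 per Z1C2Z sample, and Ghr, the growth hormone receptor, had -0.31 (edgeR adjusted p = 0.113). Of 13 interferon, IL10 and IL12 chains, Ifnar2 (-0.68, edgeR adjusted p = 0.0360) and Ifngr1 (-0.38, 0.0499) were lower, and Ifnar1 had -0.41 (edgeR adjusted p = 0.104).

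Of 17 inhibitors, Socs3 and Socs2 were lower. SOCS3 is induced by STAT3 and blocks JAK kinases at gp130. Its gene had 139, 64.4, 77.9 and 186 CPM in the controls and 31.3, 18.8, 19.1 and 39.4 CPM in the Z1C2Z samples (log2 fold change -2.11, standard error 0.38, edgeR adjusted p = 0.0299). The order of the treated samples was close to that of Jak2, with Z1C2Z-5 highest. Socs2, a feedback inhibitor of growth hormone signaling, fell by 0.62 on the log2 scale (edgeR adjusted p = 0.0299). The phosphatase genes Ptpn11 (0.07, edgeR adjusted p = 0.607) and Ptpn1 (-0.34, 0.0680) did not pass.

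Targets were counted by the STAT factor that serves them. Of 19 tested STAT3 targets, 16 had a log2 fold change under 0, beside 48.9% of all genes tested. In edgeR 5 were lower and the cyclin gene Ccnd1, named after its value was seen, was higher (0.60, edgeR adjusted p = 0.0300). The 5 were Socs3, Bcl3 (-1.37, edgeR adjusted p = 0.0299), Cebpd (-1.32, 0.0348), Icam1 (-0.84, 0.0299) and Hif1a (-0.81, 0.0303), which encode a feedback inhibitor, 2 transcription regulators of inflammation, an adhesion molecule and the hypoxia factor. Mcl1, a survival gene, had -0.49 (edgeR adjusted p = 0.0696). Several of these genes are also targets of other factors, NF-kappa B among them. Of 15 STAT6 targets, Il4ra and Tgm2 (-0.93, edgeR adjusted p = 0.0303) were lower and Gata3, also a gene of the hair follicle, was higher (0.89, edgeR adjusted p = 0.0374). The macrophage targets Arg1 (-0.59, edgeR adjusted p = 0.596) and Mrc1 (-0.65, 0.173) did not pass. All 17 tested interferon targets, which STAT2 serves, had a log2 fold change under 0, beside 48.9% of all genes tested. Of them 0 passed in edgeR (median -0.38, also 0 at an unadjusted p under 0.05 and 0 in DESeq2), with Eif2ak2 at -0.29 and Oasl2 at -0.54. Among the controls both Eif2ak2 and Oasl2 were lowest in control-1 and highest in control-3, so such signs are not separate observations. Of 8 STAT5 targets Il2ra and Socs2 were lower, and Igf1 (-0.19) and Bcl6 (-0.09) did not pass. Of 5 tested STAT4 targets Il18rap, a chain of the IL18 receptor, was lower (-1.03, edgeR adjusted p = 0.0428), and Furin had -0.49 (edgeR adjusted p = 0.0794). Whether one target list changed more than another was not tested.

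**Figure D5:**
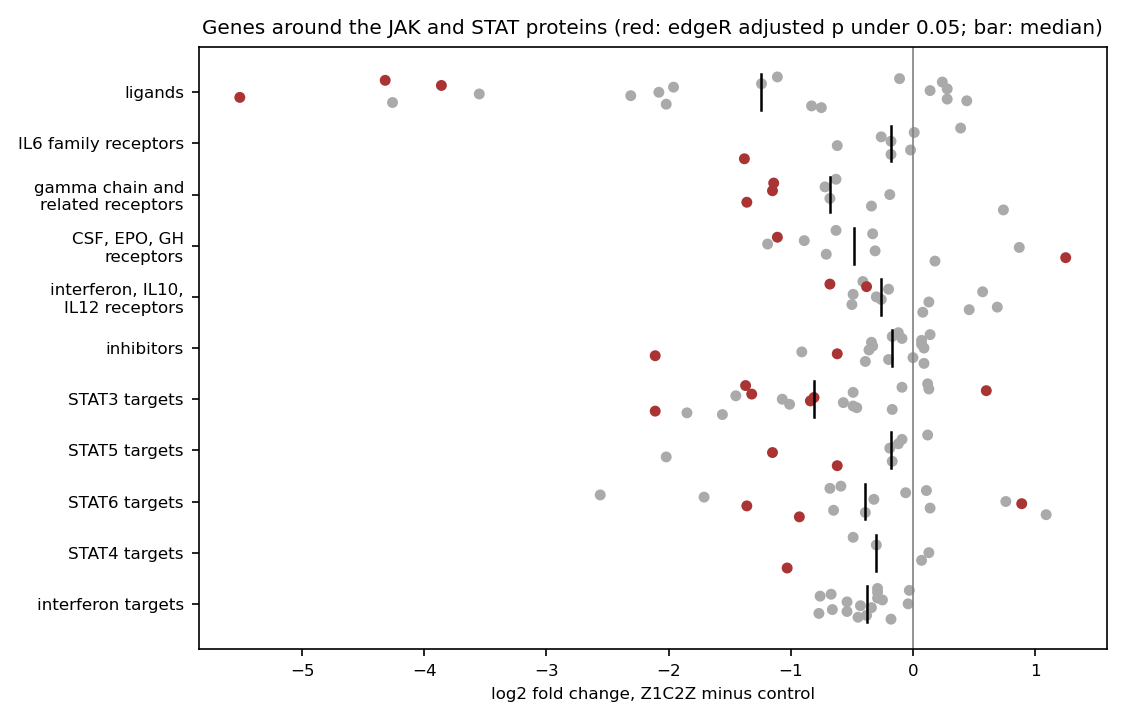
Log2 fold change of the tested genes of 11 pathway lists, Z1C2Z minus control, with 1 point per gene, red where the edgeR adjusted p was under 0.05 and a black bar at the list's median. The ligands have the lowest median, -1.24, and the interferon targets, from -0.77 to -0.03, have no red point.

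Genes whose pattern was most like that of a member were taken by the Pearson correlation of deviations from the group means of log2 CPM over the 8 samples, among genes with a mean log2 CPM over 2. It is given as a description, since samples share library depth and cell makeup. For Jak2 these were Serpinb1a (0.988), Ssr3 (0.985) and Tiparp (0.984), for Jak3 Lrrk2 (0.998), Dnm3 (0.989) and Pcsk5 (0.988), and for Stat3 Plekhb2 (0.984), Slco2a1 (0.967) and Maml1 (0.966). Of these 9, Serpinb1a and Tiparp passed the test as Jak2 did, with log2 fold changes of -1.14 and -0.99.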

How the data were processed

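RNA of 8 wound skin samples was depleted of ribosomal RNA and sequenced from random-primed cDNA. The authors deposited raw read counts per gene, without normalization, with Entrez, KEGG and GO annotation. The aligner, counter, build and strand setting are not given in the sources used here. Depth was 28856790 to 38974888 counts per sample, and 0 columns of per-sample values were left unused.

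Groups came from sample titles. The tests ran in edgeR 4.0.16 under R 4.3.3 (filterByExpr, TMM, quasi-likelihood test without covariates, Benjamini-Hochberg over 15147 genes) and called at an adjusted p under 0.05. Standard errors came from the F statistic, and log2 CPM used a prior count of 2. Levels per length used the union of GENCODE M21 exons. Single values were tested by exact two-sided permutation over 70 arrangements. DESeq2 1.42.0 was an alternative, beside RLE size factors, other low-count filters, a muscle score, the sample number as a block and each sample left out. Steps were tested on simulated data.

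The members and gene lists were chosen with earlier results of these data known. The text names all members, per pathway list up to 4 called genes and the 2 of highest mean CPM, and 3 like-patterned genes for each of Jak2, Jak3 and Stat3. Ccnd1 and Il2rg are outside this rule. Cell type lists covered leukocytes, T and NK cells, B cells, macrophages, neutrophils, keratinocytes, hair follicle, fibroblasts, endothelium, skeletal muscle and adipocytes.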

Additional observations from a re-analysis of the deposited data

How the results depend on the processing

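All members but Tyk2 kept their direction in all 14 alternatives. Members called lower numbered 2 in edgeR (3.85% of all genes), 6 in DESeq2 (9.05%), 1 with the sample number as a replicate block (1.67%), 0 with the skeletal muscle score (1 of 15147 genes), 7 at an unadjusted p (15.2%) and 0 with a fold threshold (1.25%), so the counts moved with those of the whole table. The DESeq2 calls added Jak1 (-0.51), Jak3 (-0.76), Stat4 (-1.07) and Stat6 (-0.28). With the muscle score Jak2 (-0.79) and Stat3 (-0.77) lost their calls. In that fit 6 members had an unadjusted p under 0.05, as did 3273 of the 15147 genes tested, in either direction. Leaving out each sample in turn gave 0 to 5 members lower, the 5 without Z1C2Z-5 (5.62% of all genes) and 0 also without control-2 (0.641%), and 0 to 24 lower and 0 to 5 higher genes of the pathway lists. In those 8 fits log2 fold changes were -0.64 to -0.39 for Jak1, -1.10 to -0.81 for Jak2, -0.13 to 0.05 for Tyk2, -0.90 to -0.64 for Stat3, -1.42 to -0.91 for Stat4 and -0.68 to -0.42 for Stat5a. When control-5 was left out, or any 1 treated sample other than Z1C2Z-5, no gene of the whole table passed in edgeR, with 3100 to 4208 at an unadjusted p under 0.05. Pathway genes numbered 36 lower and 6 higher in DESeq2, 0 and 0 with the muscle score, and 17 lower and 0 higher with the replicate block (1.67% and 1.99% of all genes). Sample numbers 1, 2 and 5 occur in both groups, but deviations of same-numbered samples correlated at -0.101, -0.0623 and 0.323, so the numbers were not taken to pair the samples, although control-5 and Z1C2Z-5 each correlated best with the other. Shared mice were not tested. In the replicate block the difference rests on numbers 1, 2 and 5 alone. Control-3 and Z1C2Z-4 have no partner of the same number and add nothing to it. There Stat3 was -0.84 (edgeR adjusted p = 0.0711), Jak2 -0.93 (0.0207) and Tyk2 0.09. Against the T and NK cell list in place of the leukocyte list, Tyk2 (-0.23), Stat2 (-0.43) and Stat6 (-0.50) turned in sign. The length of the longest transcript, chosen after seeing the data, moved 2 places of the level order. The causes were not tested. With 4 against 3 samples the exact test cannot go below 0.0571, so pair ratios were recomputed as values only.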

Other observations

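The remaining cell type lists held no gene that passed in edgeR. Macrophage genes had 9 of 9 log2 fold changes under 0, beside 48.9% of all genes tested, with a median of -0.37 (3 lower at an unadjusted p under 0.05, and 0 in DESeq2). They summed to 1932 to 2484 CPM in control and 1328 to 2095 CPM in Z1C2Z samples. Neutrophil genes had a median of -1.12 over 7 tested, with 580 to 1509 against 169 to 672 CPM in sum (4 lower at an unadjusted p under 0.05, and 2 in DESeq2). Endothelial genes (median -0.71, 322 to 848 against 290 to 533 CPM), adipocyte genes (-0.46, 568 to 714 against 436 to 840 CPM) and keratinocyte genes (0.20, 13186 to 15469 against 14212 to 19863 CPM) overlapped between the groups in their sums. At an unadjusted p under 0.05 there were 3 endothelial, 4 adipocyte and 0 keratinocyte genes lower, and 2, 2 and 0 in DESeq2. A single B cell gene was tested (0.533 to 1.36 against 0.879 to 1.92 CPM).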
